A study of Mus musculus with 10 samples.

Results

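The genes described here encode the mitochondrial respiratory chain and ATP synthase, together with the assembly factors that carry the same family names. They were taken by symbol: names starting with Nduf, Sdha to Sdhd, Uqcr, Cyc1, Cox4 to Cox8, Cox10 to Cox20 or Atp5. Of 12366 genes with a probe set that names 1 gene, 98 met this rule, made up of 77 subunits, 20 assembly factors and Cox7a2l, a factor that joins complexes III and IV. Their levels were compared between the livers of 5 DicerloxP/loxP;Afp-Cre+ mice, called mutant here, and of 5 control mice. The mutant mice carried loxP-flanked Dicer1 alleles and a Cre recombinase driven by Afp, a gene active in the fetal liver, and the labels do not give the alleles of the controls. All animals were 28 days old, of mixed strain and fasted for 5 hours. For each animal, total liver RNA was amplified, biotinylated and read on 1 expression array. The labels name neither sex, litter nor batch, and in whole liver fewer cells of a type and less RNA per cell cannot be told apart.

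Dicer1 is the enzyme that cuts precursor hairpins into mature microRNAs, which lower the levels of messenger RNAs that pair with their seed. The respiratory chain passes electrons from NADH (through complex I) and succinate (through complex II) by way of ubiquinone to complex III, and by way of cytochrome c to complex IV, which reduces oxygen. Complexes I, III and IV pump protons across the inner mitochondrial membrane, and ATP synthase (complex V) uses the return flow to make ATP, which hepatocytes spend on gluconeogenesis, urea synthesis and bile formation. Most subunits are encoded in the nucleus and imported, while a small core set is encoded by mitochondrial DNA, and assembly factors build the complexes without remaining in them. All genes of the present comparison are nuclear.

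Dicer1 itself checked the labels. Its 2 probe sets had mean log2 signals of 5.75 and 7.06 in mutant livers, against 8.06 and 8.08 in control livers, differences of -2.31 and -1.03 with groups that did not overlap. Mutant liver 5 had Dicer1 signals of 5.84 and 6.98, within the range of the other mutant livers, yet over all genes it stood apart from them. On the first principal component (50.4% of the variance) it scored -9.50, between the other mutant livers (23.5 to 47.3) and the control livers (-31.8 to -21.0). Over all genes, 2488 (20.1%) differed between the groups at an adjusted p under 0.05 in limma, 1066 (8.62%) higher and 1422 (11.5%) lower in mutant livers, and the median difference was -0.012 on the log2 scale. Groups that did not overlap were seen for 763 genes (6.17%) higher and 865 genes (6.99%) lower in mutant livers.

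Most measured respiratory chain and ATP synthase genes fell in mutant livers, by small amounts. Of the 98 genes, 55 (56.1%) were lower and 1, the assembly factor Cox15, was higher, while 42 did not pass the test. A background of 11.5% of all genes called lower stands beside that share. Of the 42 genes that did not pass, 36 had a negative difference, so that 91 differences were negative and 7 positive, including 3 genes below the 25th percentile of all values on every array, whose direction cannot be read. The median difference was -0.33 over the 98 genes. Among the 55 that fell, the fold lower in mutant livers ranged from 1.15 to 2.17 with a median of 1.44. In 38 genes every mutant liver was below every control liver, against 6.99% of all genes, and 35 of these were among the 55.

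Subunits and assembly factors were counted apart. Of 77 subunits, 42 fell (54.5%, against 11.5% of all genes) and 0 rose, with a median difference of -0.27. Of 20 assembly factors, 12 fell (60%) and Cox15 rose (5%, against 8.62% of all genes), with a median difference of -0.61. With 1 array left out, the number of subunits that fell was 29, 24, 31, 24 and 51 without mutant livers 1 to 5 and 29, 25, 24, 27 and 32 without control livers 1 to 5. For assembly factors it was 8, 8, 8, 6 and 15 without mutant livers 1 to 5 and 10, 9, 7, 8 and 8 without control livers 1 to 5. The number of all genes called lower changed in these fits too, as given below. The median over the subunits was -0.26, -0.39, -0.25, -0.47 and -0.088 in mutant livers 1 to 5, each array taken against the control mean, and between -0.069 and 0.033 in the control livers. For the assembly factors the same median was -0.81, -0.70, -0.43, -0.72 and -0.074 in mutant livers 1 to 5, and between -0.11 and 0.064 in the control livers. The subunit medians of the mutant livers lay below those of all control livers, whereas for assembly factors mutant liver 5 lay within the control range. The difference between the 2 classes was not tested. Assembly factors gave dimmer signals than subunits (median mutant and control levels of 8.602 and 9.11, against 12.6 and 12.9 for subunits), and signals of different probe sets are not comparable as levels.

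**Figure D1:**
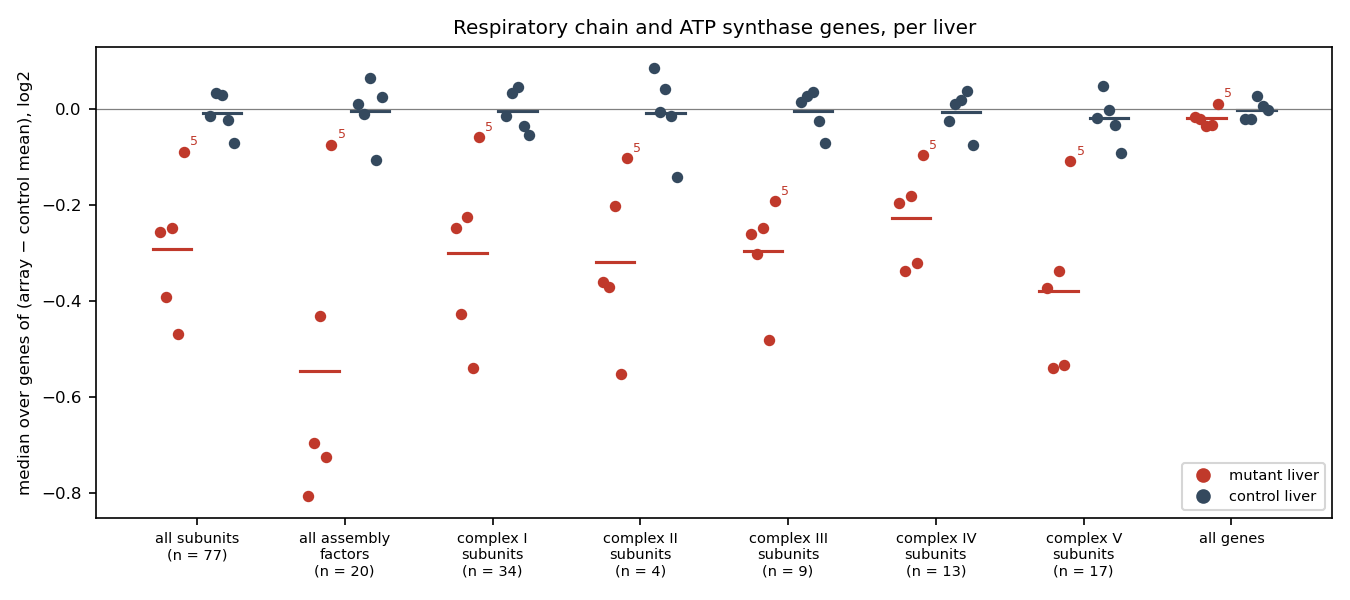
The median, over the genes of each class, of an array's log2 value minus the control mean is plotted for each mutant (red) and control (dark) liver, with bars at group means and with mutant liver 5 marked. Over the 77 subunits the mutant livers ranged from -0.47 to -0.088 and the control livers from -0.069 to 0.033, while over all genes both groups lay within 0.036 of 0.

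Mutant liver 5 carried the smallest part of this change. Of the 98 genes, 80, 83, 71, 86 and 43 lay below every control liver in mutant livers 1 to 5, against 30.1%, 33.2%, 34.8%, 35.7% and 14.5% of all genes in the same livers. For the 55 genes that fell, the difference of mutant liver 5 from the control mean was set against that of the mean of mutant livers 1 to 4. At the median it was 0.304 of the latter, and in 49 of the genes mutant liver 5 was the highest of the mutant livers. Leaving it out raised the number of these genes lower in mutant livers to 67, and the number over all genes from 1422 to 2160. Leaving out any other array lowered the number of these genes, to 38, 33, 40 and 31 without mutant livers 1 to 4 and to 40, 35, 32, 36 and 41 without control livers 1 to 5. Over all genes the same fits gave 847, 824, 930 and 764 lower without mutant livers 1 to 4. Without control livers 1 to 5 they gave 1005, 1029, 782, 856 and 930, so the calls over all genes moved in the same directions. The count of 55 therefore held within 1.5 times without mutant livers 1, 3 and 5 and control livers 1 and 5, and dropped further without the others. In all 10 of these fits 28 of the 55 remained, and 25 of these also remained under quantile normalization and when each array's median or 75th percentile was subtracted.

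Markers of other liver cells and array controls were read beside these counts. Hepatocyte markers, Alb and Cps1 among them, gave mean signals of 14.4 to 14.7 in mutant and 14.1 to 14.7 in control livers. Of these 7 markers 0 passed the test, with 4 negative and 3 positive differences. Apoa1 was lower in every mutant liver than in every control liver, at -0.09 (adjusted p = 0.129). Apoa1, Ttr, Alb and Apoa2 had control means of 16.4, 16.3, 16.2 and 15.6, near the highest value on any array. Whether signals this high can show a loss of hepatocyte RNA was not tested. Macrophage markers rose in 7 of 8 genes (87.5%, against 8.62% of all genes), with list means of 10.5 to 10.9 in mutant and 9.53 to 10.3 in control livers. Stellate cell markers rose in 3 of 6 measured genes (50%), with list means of 9.37 to 10.1 in mutant and 8.82 to 9.32 in control livers. Of 5 endothelial markers 1, Lyve1, fell (20%, against 11.5% of all genes), and all 5 differences were negative. The endothelial list means were 8.42 to 8.70 in mutant and 8.67 to 9.10 in control livers. For cholangiocytes 0 of 4 measured markers passed (4.21 to 4.97 in mutant and 3.91 to 4.24 in control livers). The 1 erythroid marker measured, Alas2, did not pass (8.92 to 10.6 in mutant and 9.65 to 10.9 in control livers). The part of these cells in the lower respiratory chain signals was not tested. Hybridisation controls averaged 11.6 to 12.2 in mutant and 11.6 to 12.2 in control livers, and the 3' minus 5' signal of actin, a measure of RNA integrity, ran from 0.83 to 1.04 in mutant and from 0.88 to 0.98 in control livers.

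Complex I, the NADH dehydrogenase, has core subunits that carry electrons and many accessory subunits around them. Of 34 measured subunits, 16 fell (47.1%, against 11.5% of all genes) and 0 rose in mutant livers, with a median difference of -0.27 over all 34. On the probe sets taken, differences were negative throughout, apart from Ndufb4, which was too dim to give a direction. Over all their probe sets, Ndufs4 ran from -0.11 to 0.72, Ndufa12 from -0.06 to 0.14 and Ndufs7 from -0.02 to 0.09. Ndufa1 had log2 signals of 13.32, 13.02, 13.35, 13.10 and 13.61 in mutant livers 1 to 5, against 13.94, 13.89, 13.90, 13.84 and 13.79 in control livers 1 to 5. All mutant livers were below all control livers for this small accessory subunit of the membrane arm, with a difference of -0.59 (adjusted p = 0.00859, SE 0.10). Ndufv3 had log2 signals of 12.41, 11.95, 12.33, 12.15 and 12.81 in mutant livers 1 to 5, against 13.03, 13.03, 12.96, 12.90 and 13.03 in control livers 1 to 5. Ndufv3, an accessory subunit of the NADH-binding module, fell with a difference of -0.66 (adjusted p = 0.0146, SE 0.14), again with no overlap. The subunits Ndufb5, Ndufb9 and Ndufb8 of the membrane arm fell with differences of -0.46 (adjusted p = 0.0181), -0.36 (adjusted p = 0.0182) and -0.56 (adjusted p = 0.0213), and the accessory subunits Ndufa2 and Ndufa7 with -0.52 (adjusted p = 0.0186) and -0.37 (adjusted p = 0.0193).

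Ndufc1 had log2 signals of 12.27, 11.91, 12.01, 11.63 and 12.92 in mutant livers 1 to 5, against 12.88, 12.999, 12.99, 13.001 and 13.05 in control livers 1 to 5. This membrane arm subunit had the most negative difference of the complex I subunits, -0.83 (adjusted p = 0.0229, SE 0.20), but mutant liver 5 lay among the control livers. Ndufc1 did not pass without control 3, mutant 2 or mutant 3 (adjusted p up to 0.0553), Ndufa10 without control 2, mutant 1 or mutant 4 (adjusted p up to 0.0554) and Ndufb2 without control 2, control 3, control 4, mutant 2, mutant 3 or mutant 4 (adjusted p up to 0.0615). Ndufb3 passed only without control 5 and without mutant 5 among the fits that left out 1 array (adjusted p up to 0.0959 in the others). Ndufa3, Ndufa8, Ndufb1, Ndufb7 and Ndufb11 passed in 1 of those 10 fits, the one without mutant 5, and reached adjusted p of 0.0776, 0.0976, 0.0833, 0.0742 and 0.0808 in the others. Of the 3 rescalings, Ndufb11 passed under 0, Ndufa8 and Ndufa10 under quantile normalization alone, and Ndufb3 failed with the 75th percentile subtracted. Ndufb1 was dim, with means of 3.94 in mutant and 4.19 in control livers, near the 25th percentile of all values (3.60). Both means were above that percentile, so Ndufb1 stayed in the fit that left out dim genes, but its call was lost there.

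Accessory and core subunits of complex I were counted apart. Of the 6 measured core subunits 0 passed in limma (median difference -0.14). Of the 28 other subunits 16 fell (57.1%, against 11.5% of all genes), with a median of -0.33. The core subunits with the most negative differences were Ndufs8 with -0.31 (adjusted p = 0.0916), which carries iron-sulphur clusters near the ubiquinone site, and Ndufs1 with -0.21 (adjusted p = 0.111), the largest iron-sulphur subunit. Ndufs1 had log2 signals of 11.59, 11.52, 11.66, 11.32 and 11.73 in mutant livers 1 to 5, against 11.86, 11.80, 11.91, 11.66 and 11.65 in control livers 1 to 5. The groups overlapped through mutant livers 3 and 5 and control livers 4 and 5. Ndufv1, which binds NADH, had a difference of -0.17 (95% interval -0.32 to -0.03, adjusted p = 0.0843), and Ndufs7, the iron-sulphur subunit next to the ubiquinone site, -0.02 (95% interval -0.19 to 0.15, adjusted p = 0.904). By family name, 8 of 11 Ndufb genes (72.7%) and 6 of 12 Ndufa genes (50%) fell. The core count rests on mutant liver 5 and on the probe set taken. Without mutant 5 Ndufs8 and Ndufv1 passed as lower, and Ndufs8 also passed with array weights and with averaged probe sets. The other 4 probe sets of Ndufs8 had differences of -0.45, -0.29, -0.45 and -0.41, with limma p adjusted over all probe sets of 0.0479, 0.0495, 0.0193 and 0.03. Whether core and accessory subunits differ was not tested.

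Complex II, succinate dehydrogenase, links the TCA cycle to the chain and has 4 subunits, of which the 2 membrane anchors fell. Sdhd had log2 signals of 10.997, 11.04, 11.18, 10.89 and 11.41 in mutant livers 1 to 5, against 11.91, 11.68, 11.87, 11.76 and 11.63 in control livers 1 to 5. Every mutant liver lay below every control liver, with a difference of -0.67 (adjusted p = 0.00657, SE 0.10) for this anchor subunit. Sdhc had log2 signals of 11.45, 11.32, 11.56, 11.13 and 11.84 in mutant livers 1 to 5, against 12.03, 12.11, 12.07, 11.99 and 11.82 in control livers 1 to 5. Sdhc, the other anchor, fell with a difference of -0.54 (adjusted p = 0.0179, SE 0.12). The 2 catalytic subunits did not pass the test: Sdha, the flavoprotein that oxidises succinate, had a difference of -0.08 (95% interval -0.22 to 0.06, adjusted p = 0.427), and Sdhb, its iron-sulphur partner, -0.05 (95% interval -0.21 to 0.10, adjusted p = 0.651). Sdha had log2 signals of 12.85, 12.95, 13.05, 12.78 and 13.03 in mutant livers 1 to 5, against 12.98, 12.99, 12.95, 13.03 and 13.10 in control livers 1 to 5. Mutant and control livers overlapped for Sdha, and the upper bounds of both intervals were above 0. The result for Sdha depends on the probe set: with _x_at and _s_at probe sets avoided, another probe set stood for Sdha and was lower, at -0.19 (adjusted p = 0.0375).

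Complex III, the cytochrome bc1 complex, passes electrons from ubiquinol to cytochrome c. Of 9 measured subunits 6 fell (66.7%, against 11.5% of all genes). Uqcr10 had log2 signals of 10.57, 10.10, 10.66, 10.32 and 11.18 in mutant livers 1 to 5, against 11.58, 11.55, 11.75, 11.49 and 11.48 in control livers 1 to 5. Uqcr10, a small subunit at the edge of the complex, had the most negative difference of all subunits, -1.003 (adjusted p = 0.00871, SE 0.18), which is 2.005-fold lower in mutant livers. Uqcr11 had log2 signals of 12.08, 11.67, 12.08, 11.66 and 12.47 in mutant livers 1 to 5, against 12.72, 12.78, 12.76, 12.77 and 12.71 in control livers 1 to 5. Small subunits Uqcr11, Uqcrq and Uqcrh, the last a hinge between the complex and cytochrome c, fell with differences of -0.75 (adjusted p = 0.0112, SE 0.14), -0.66 (adjusted p = 0.00764, SE 0.11) and -0.65 (adjusted p = 0.0135, SE 0.13), with no overlap between groups. The result for Uqcrq depends on the probe set: with _x_at and _s_at probe sets avoided, it did not pass (adjusted p = 0.546). Cyc1, the cytochrome c1 that hands electrons on, fell less, with -0.28 (adjusted p = 0.0194), and its call was lost when each array's median or 75th percentile was subtracted. Uqcrb had -0.22 (adjusted p = 0.0368) and passed in 1 of the 10 fits that left out 1 array, the one without mutant 5. It was also lost with the array median or 75th percentile subtracted, without dim genes and with averaged probe sets.

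Uqcrc2, Uqcrc1 and Uqcrfs1 of complex III did not pass. Uqcrc2 had log2 signals of 13.75, 13.87, 13.81, 13.66 and 13.81 in mutant livers 1 to 5, against 13.65, 13.71, 13.53, 13.74 and 13.74 in control livers 1 to 5. This core protein had a difference of 0.11 (95% interval -0.03 to 0.24, adjusted p = 0.237), with overlapping groups, and Uqcrc1, its partner, 0.03 (95% interval -0.18 to 0.24, adjusted p = 0.876). Uqcrfs1, the Rieske iron-sulphur protein, had -0.17 (95% interval -0.30 to -0.05, adjusted p = 0.0544), and passed as lower without mutant 3. Whether these subunits differ from the other subunits of complex III was not tested.

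**Figure D2:**
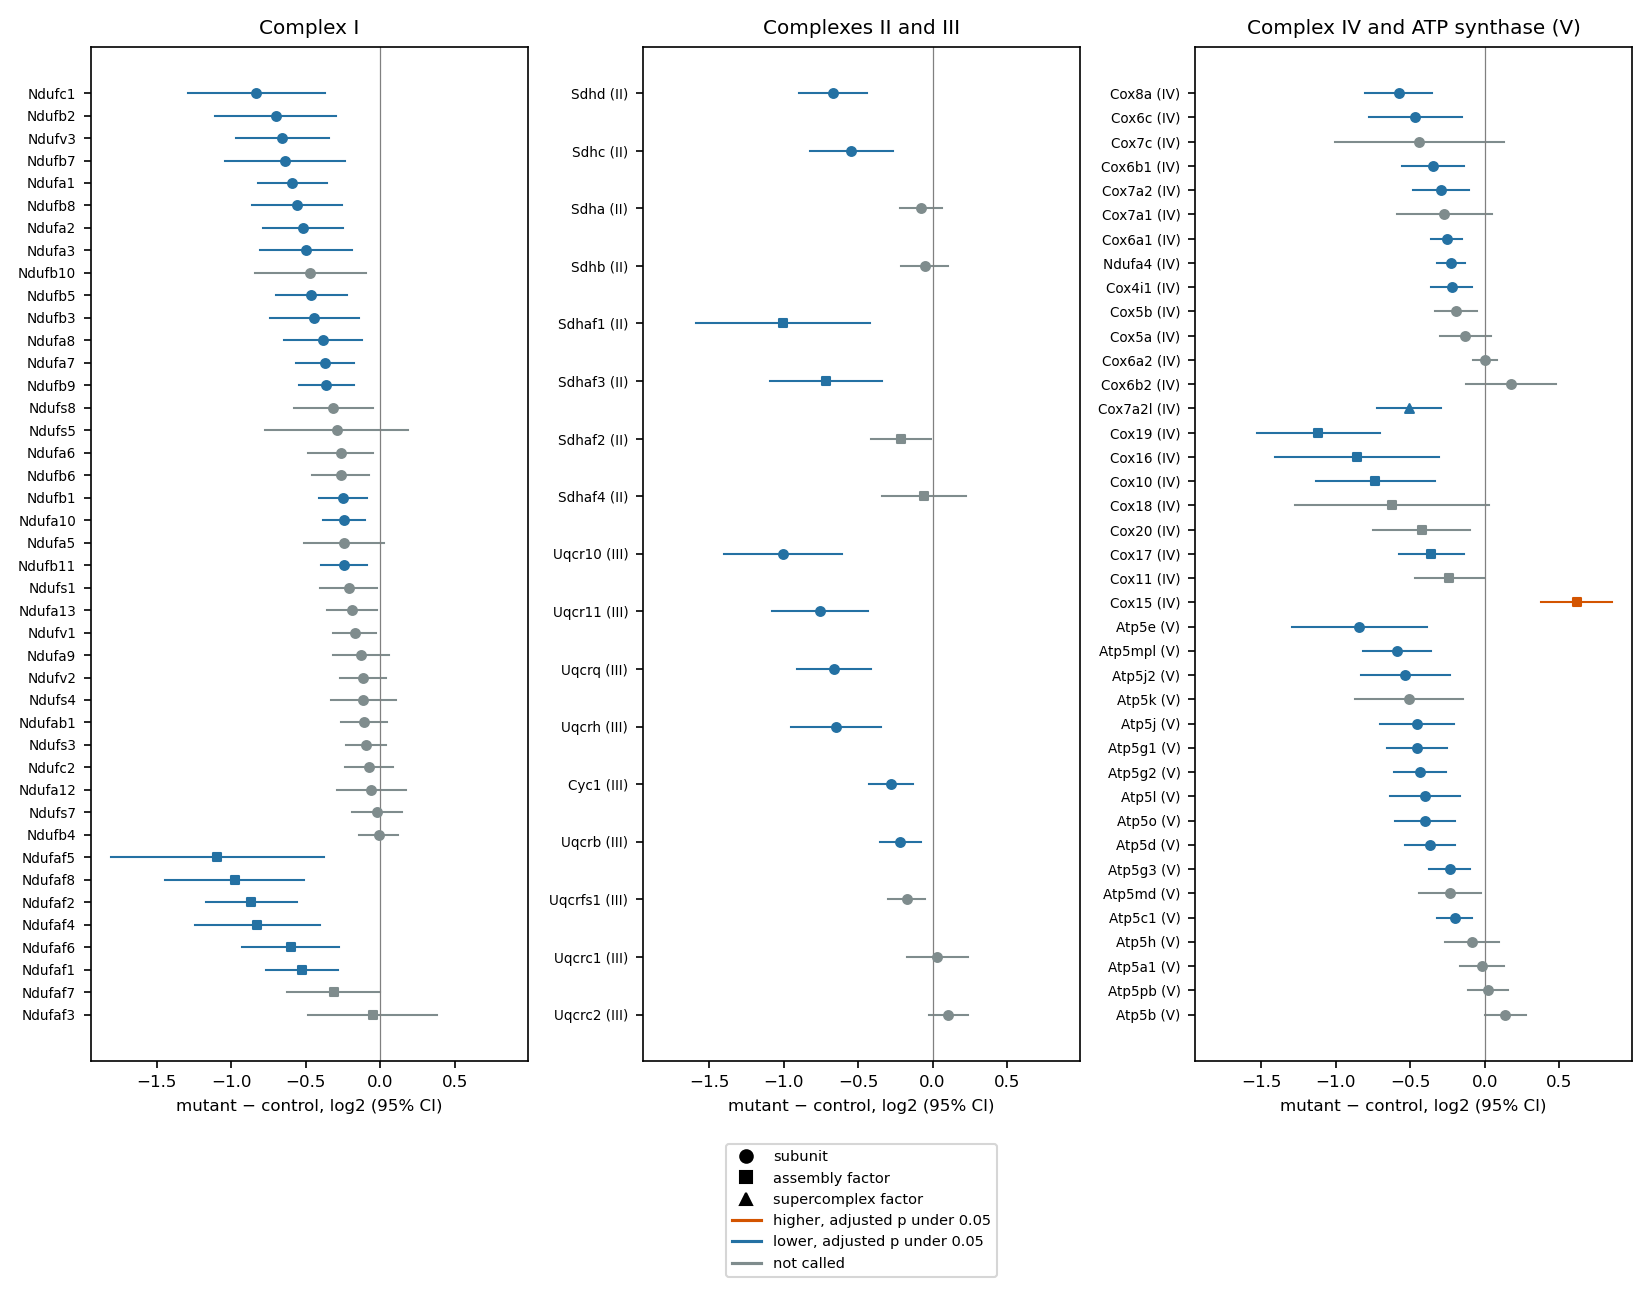
Differences (mutant minus control, log2) with 95% intervals from limma are shown for the 98 genes, grouped by complex, with circles for subunits, squares for assembly factors and a triangle for Cox7a2l. The 55 genes that fell are blue and Cox15, at 0.62, is orange; assembly factors run from -1.12 to 0.62 and subunits from -1.003 to 0.18.

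Complex IV, cytochrome c oxidase, reduces oxygen to water. Of 13 measured subunits 7 fell (53.8%, against 11.5% of all genes) and 0 rose. Cox8a had log2 signals of 10.61, 10.42, 10.72, 10.29 and 10.84 in mutant livers 1 to 5, against 11.25, 11.17, 11.17, 11.13 and 11.06 in control livers 1 to 5. Cox8a, a small nuclear-encoded subunit, was lower in all mutant livers than in all control livers, with a difference of -0.58 (adjusted p = 0.00859, SE 0.10). Cox6a1 had log2 signals of 15.07, 14.91, 15.08, 14.94 and 15.01 in mutant livers 1 to 5, against 15.30, 15.23, 15.29, 15.24 and 15.23 in control livers 1 to 5. Cox6a1, the liver form of a subunit that in muscle comes from Cox6a2, fell by a smaller amount, with a difference of -0.26 (adjusted p = 0.0095, SE 0.05), without overlap, and Ndufa4, a complex IV subunit despite its name, with -0.23 (adjusted p = 0.011, SE 0.04). Cox6a1 and Ndufa4 no longer passed when the array median was subtracted. Cox6b1, Cox4i1, Cox7a2 and Cox6c had differences of -0.35 (adjusted p = 0.0305), -0.22 (adjusted p = 0.0326), -0.29 (adjusted p = 0.038) and -0.47 (adjusted p = 0.0433). These did not pass in 8, 7, 8 and 9 of the 10 fits that left out 1 array, with adjusted p up to 0.0674, 0.0739, 0.0836 and 0.0961, while all 4 passed without mutant 5. Cox4i1 and Cox7a2 passed under 0 of the 3 rescalings, and Cox6b1 and Cox6c were lost under quantile normalization.

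Cox5a and Cox5b, which sit on the matrix side of complex IV, did not pass. Cox5a had log2 signals of 14.44, 14.25, 14.26, 14.03 and 14.27 in mutant livers 1 to 5, against 14.36, 14.45, 14.32, 14.49 and 14.29 in control livers 1 to 5. Mutant liver 1 lay near the highest control livers, and the difference was -0.13 (95% interval -0.30 to 0.04, adjusted p = 0.258), whereas another Cox5a probe set gave -0.22 (limma p adjusted over all probe sets 0.0245). Cox5b had log2 signals of 13.45, 13.35, 13.59, 13.39 and 13.63 in mutant livers 1 to 5, against 13.63, 13.71, 13.67, 13.72 and 13.65 in control livers 1 to 5. Every mutant liver was below every control liver for Cox5b, with a difference of -0.19 (95% interval -0.33 to -0.05, adjusted p = 0.0539). Cox5b passed as lower with averaged probe sets, with _x_at and _s_at probe sets avoided, with array weights and without mutant 5. The muscle and testis forms Cox6a2, Cox7a1 and Cox6b2 gave mean signals of 2.23, 2.89 and 3.27 in mutant livers and 2.23, 3.16 and 3.09 in control livers, below the 25th percentile of all values (3.60), and no direction was read from them. Ndufb4, a complex I subunit measured here by 1 dim probe set, was likewise below 3.60 on all arrays. The factor Cox7a2l fell with a difference of -0.51 (adjusted p = 0.0108, SE 0.10) and passed in all 10 fits that left out 1 array.

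ATP synthase (complex V) consists of the catalytic F1 head, a ring of c subunits and a stalk with membrane subunits. Of 17 measured subunits 11 fell (64.7%, against 11.5% of all genes) and 0 rose, with a median difference of -0.40. Atp5mpl had log2 signals of 11.996, 11.83, 11.89, 11.73 and 12.23 in mutant livers 1 to 5, against 12.62, 12.58, 12.66, 12.42 and 12.35 in control livers 1 to 5. All mutant livers were lower than all control livers for this small subunit of the membrane part, with a difference of -0.59 (adjusted p = 0.0084, SE 0.10). All 3 genes for subunit c, whose mature proteins are the same, fell, with differences of -0.46 (adjusted p = 0.0115, SE 0.09) for Atp5g1, -0.43 (adjusted p = 0.00914, SE 0.08) for Atp5g2 and -0.24 (adjusted p = 0.0277) for Atp5g3. Atp5d, in the central stalk of the head, and Atp5o, at the top of the peripheral stalk, fell with differences of -0.37 (adjusted p = 0.0132, SE 0.08) and -0.40 (adjusted p = 0.017, SE 0.09). Atp5g3 passed in 3 of 10 fits that left out 1 array, those without control 5, mutant 1 and mutant 5 (adjusted p up to 0.0646 in the others), and was lost with the array median or 75th percentile subtracted.

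Atp5e had log2 signals of 11.52, 11.30, 11.49, 11.23 and 12.41 in mutant livers 1 to 5, against 12.40, 12.56, 12.39, 12.38 and 12.42 in control livers 1 to 5. This small subunit of the central stalk had the most negative difference of the complex, -0.84 (adjusted p = 0.0209, SE 0.20), but mutant liver 5 lay with the control livers, and the call was lost without mutant 2 or mutant 4 (adjusted p up to 0.0504). Atp5j and Atp5j2, subunits of the peripheral stalk and of the membrane part, fell with a difference of -0.46 (adjusted p = 0.0217) and -0.53 (adjusted p = 0.0245). Atp5j did not pass without control 3 or mutant 4 (adjusted p up to 0.0527), and Atp5j2 without control 2, control 3 or mutant 2 (adjusted p up to 0.0567). Atp5l and Atp5c1, with differences of -0.40 (adjusted p = 0.0283) and -0.20 (adjusted p = 0.0274), passed in 3 of 10 such fits each, and Atp5c1 passed under 0 of the 3 rescalings. Atp5b had log2 signals of 14.65, 14.72, 14.70, 14.60 and 14.46 in mutant livers 1 to 5, against 14.57, 14.55, 14.43, 14.50 and 14.39 in control livers 1 to 5. The catalytic beta subunit Atp5b did not pass, at 0.14 (95% interval 9.4e-05 to 0.28, adjusted p = 0.143), and neither did the alpha subunit Atp5a1, at -0.02 (95% interval -0.17 to 0.13, adjusted p = 0.906), nor the stalk subunit Atp5pb, at 0.02 (95% interval -0.11 to 0.15, adjusted p = 0.857). Without mutant liver 5, Atp5b passed in the upward direction. Atp5k, a membrane subunit, had -0.51 (adjusted p = 0.0531), and passed as lower under several alternatives, among them averaged probe sets, array weights and leaving out mutant 5.

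Of the 8 complex I assembly factors 6 fell (75%, against 11.5% of all genes) and 0 rose, with a median difference of -0.71. Ndufaf2 had log2 signals of 8.07, 8.17, 8.43, 8.04 and 8.79 in mutant livers 1 to 5, against 9.13, 9.09, 9.27, 9.15 and 9.19 in control livers 1 to 5. This factor, which binds late intermediates of complex I, had a difference of -0.87 (adjusted p = 0.00719, SE 0.14), 1.82-fold lower in mutant livers. Ndufaf8 had log2 signals of 9.35, 8.84, 9.55, 9.14 and 10.15 in mutant livers 1 to 5, against 10.39, 10.53, 10.37, 10.23 and 10.40 in control livers 1 to 5. The complex I factors Ndufaf8, Ndufaf4 and Ndufaf1 fell with differences of -0.98 (adjusted p = 0.015, SE 0.21), -0.82 (adjusted p = 0.0179, SE 0.19) and -0.53 (adjusted p = 0.0129, SE 0.11), and passed with Ndufaf2 in all 10 fits that left out 1 array. Ndufaf6, an early factor, and Ndufaf5, which modifies Ndufs7, had -0.60 (adjusted p = 0.0209) and -1.10 (adjusted p = 0.0396). Ndufaf6 did not pass without control 3, mutant 2 or mutant 4 (adjusted p up to 0.0523), and Ndufaf5 passed only without control 4 and without mutant 5 (adjusted p up to 0.0904 in the others). Ndufaf7 and Ndufaf3 did not pass, with -0.31 (adjusted p = 0.144) and -0.05 (adjusted p = 0.906).

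Of the 4 complex II factors, Sdhaf1 and Sdhaf3, which mature the iron-sulphur subunit, fell with differences of -1.01 (adjusted p = 0.0276, SE 0.26) and -0.71 (adjusted p = 0.0202, SE 0.17). Sdhaf1 had log2 signals of 7.95, 7.29, 8.03, 7.87 and 8.95 in mutant livers 1 to 5, against 8.86, 8.82, 9.08, 9.29 and 9.08 in control livers 1 to 5. Mutant liver 5 lay within the control livers for Sdhaf1, whose call was lost without control 3, control 4, control 5, mutant 1, mutant 3 or mutant 4 (adjusted p up to 0.0637); that of Sdhaf3 was lost without mutant 4 (adjusted p up to 0.0502). Sdhaf2, which adds flavin to Sdha, and Sdhaf4, which joins Sdha with Sdhb, did not pass, at -0.21 (adjusted p = 0.125) and -0.06 (adjusted p = 0.808).

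Of the 8 complex IV factors, 4 fell (50%, against 11.5% of all genes) and 1 rose (12.5%, against 8.62%). Cox19 had log2 signals of 8.89, 8.19, 8.42, 8.52 and 9.28 in mutant livers 1 to 5, against 9.65, 9.82, 9.72, 9.87 and 9.84 in control livers 1 to 5. Cox19, a protein of copper delivery to complex IV, had the most negative difference of all 98 genes, -1.12 (adjusted p = 0.00749, SE 0.18), 2.17-fold lower in mutant livers, with no overlap. Cox15 had log2 signals of 8.59, 8.67, 8.69, 8.35 and 8.39 in mutant livers 1 to 5, against 7.77, 8.07, 7.77, 7.83 and 8.17 in control livers 1 to 5. Cox15, which makes heme A from heme O, was higher in every mutant liver than in every control liver, with a difference of 0.62 (adjusted p = 0.00829, SE 0.11), and passed under all 10 left-out arrays. Cox10, which makes the heme O that Cox15 uses, fell with a difference of -0.73 (adjusted p = 0.0217, SE 0.18) and did not pass without control 4 (adjusted p up to 0.0503). The copper chaperone Cox17 and the assembly factor Cox16 had -0.36 (adjusted p = 0.0333) and -0.86 (adjusted p = 0.0376), and passed in 2 of 10 such fits (without control 1 and without mutant 5) and in 1 (without mutant 5); their adjusted p reached 0.0771 and 0.0855 in the others. Cox18, Cox20 and Cox11 did not pass, at -0.62 (adjusted p = 0.16), -0.42 (adjusted p = 0.0664) and -0.24 (adjusted p = 0.133).

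**Figure D3:**
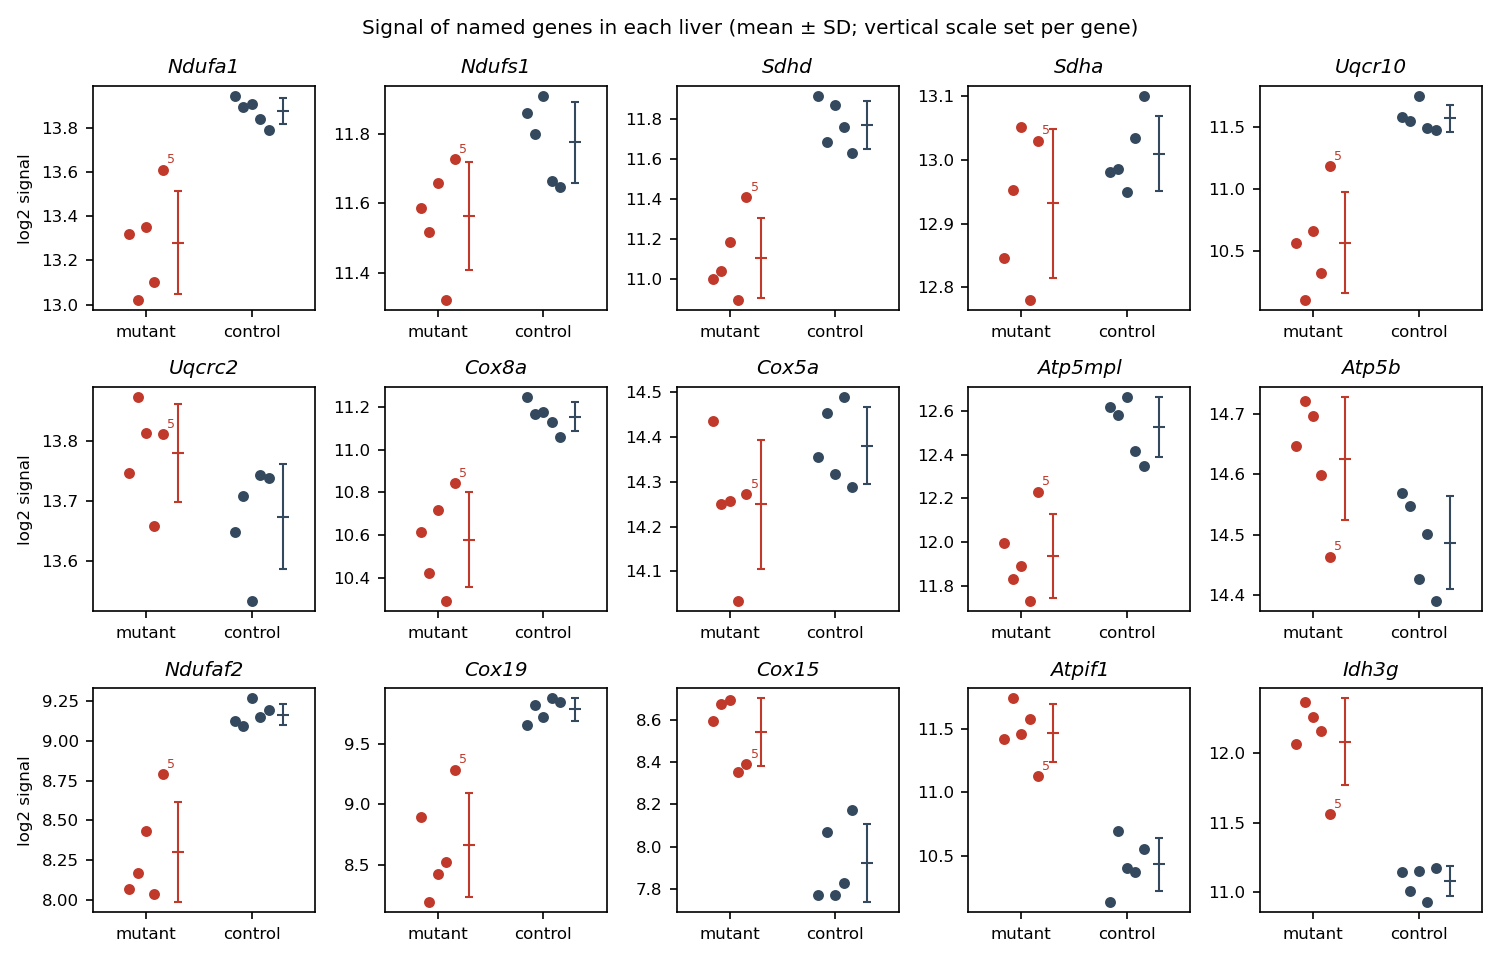
Log2 signals of 15 genes are plotted for each mutant (left, mutant liver 5 marked) and control (right) liver, with the mean and SD beside the points and with a scale of its own for each gene. Ndufa1, Sdhd, Uqcr10, Cox8a, Atp5mpl, Ndufaf2 and Cox19 separate with the mutant livers low, Cox15, Atpif1 and Idh3g with the mutant livers high, and Ndufs1, Sdha, Uqcrc2, Cox5a and Atp5b overlap.

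The 55 genes that fell were measured by 1 probe set in 23 cases and by several in 32. In 31 of those 32 the differences of all probe sets were negative. The exception was Atp5g2, whose probe sets ran from -0.43 to 0.09. For Uqcr10 the 3 probe sets ran from -2.10 to -1.003. For Atp5g1, Uqcrq, Cox16, Ndufa3 and Atp5j2 the least negative probe set was a dim one in each case. These probe sets were at -0.01, -0.0013, -0.009, -0.02 and -0.03. When the signals of all probe sets of a gene were averaged, Uqcr10, Uqcrb, Atp5g2, Atp5o, Atp5c1 and Cox16 no longer passed. With _x_at and _s_at probe sets avoided, Atp5c1 and Uqcrq no longer passed.

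Further genes of the same machinery were set beside these. Of 25 measured assembly factors with other names, 13 fell (52%, against 11.5% of all genes) and 2 rose (8%, against 8.62%), with a median difference of -0.40. Coa3 had log2 signals of 10.83, 10.70, 10.90, 10.71 and 11.12 in mutant livers 1 to 5, against 11.36, 11.48, 11.49, 11.52 and 11.54 in control livers 1 to 5. Coa3, which couples translation of the mitochondrial Cox1 protein to assembly, fell with a difference of -0.63 (adjusted p = 0.00513, SE 0.08). Uqcc3, which acts on cytochrome b, Coa5, a complex IV assembly factor, and Bcs1l, which inserts the Rieske protein, fell with a difference of -0.90 (adjusted p = 0.0115), -0.42 (adjusted p = 0.0125) and -0.65 (adjusted p = 0.015). Acad9, a complex I assembly factor related to the acyl-CoA dehydrogenases, and Coa7 rose, with 0.55 (adjusted p = 0.025) and 0.22 (adjusted p = 0.0336). The count of 13 ran from 5 to 14 over the 10 left-out arrays and fell to 8 or fewer without any one array other than mutant 5, and Coa3, Uqcc3, Coa5 and Bcs1l passed under all of the 19 alternatives tried. Over all genes the number lower ran from 764 to 2160 in the same left-out fits. The count of 2 higher dropped to 0 without control 1 or mutant 1 and to 1 in 6 further fits, and held without control 3 and without mutant 5.

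Electron carriers and coenzyme Q synthesis gave 4 lower (23.5%) and 1 higher (5.88%) of 17 measured genes, against 11.5% and 8.62% of all genes (median -0.24). Coq3 had log2 signals of 10.83, 10.66, 10.89, 10.60 and 10.28 in mutant livers 1 to 5, against 9.30, 9.48, 9.64, 9.35 and 9.52 in control livers 1 to 5. Coq3, a methyltransferase of coenzyme Q synthesis, rose without overlap, with a difference of 1.19 (adjusted p = 0.00212, SE 0.12). Coq9, a lipid-binding protein of the same pathway, and Coq2, which attaches the isoprenoid tail, fell with a difference of -0.49 (adjusted p = 0.0133) and -0.43 (adjusted p = 0.0286), as did the flavin enzyme Dhodh of pyrimidine synthesis with -0.89 (adjusted p = 0.0406) and the electron-transferring subunit Etfa with -0.30 (adjusted p = 0.042). The count of lower genes was 2 without control 4, 3 without mutant 3, 6 without mutant 5 and 1 (5.88%) without any other array. In the fits with 1 lower gene, 764 to 1029 of all 12366 genes were lower, against 1422 in the full fit. The 11.5% of the full fit is therefore no background for the 5.88%. Coq9 did not pass when probe sets were averaged, and Dhodh did not pass with _x_at and _s_at probe sets avoided. Among the fits that left out 1 array, Dhodh passed only without mutant 3 and without mutant 5. Over all alternatives its difference ran from -1.09 to -0.13.

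Among 9 measured genes of ATP export and of the ATP synthase inhibitor, 1 rose (11.1%, against 8.62% of all genes) and 2 fell (22.2%, against 11.5%). Atpif1 had log2 signals of 11.43, 11.74, 11.46, 11.58 and 11.13 in mutant livers 1 to 5, against 10.13, 10.69, 10.41, 10.37 and 10.55 in control livers 1 to 5. Atpif1, the protein that blocks ATP hydrolysis by ATP synthase, rose by 1.04 (adjusted p = 0.00429, SE 0.13), and the mutant livers all lay above the control livers. Ak4 had log2 signals of 8.69, 7.40, 7.96, 6.94 and 9.46 in mutant livers 1 to 5, against 10.17, 10.41, 10.49, 10.90 and 9.83 in control livers 1 to 5. Ak4, a mitochondrial adenylate kinase, fell with a difference of -2.27 (adjusted p = 0.0115, SE 0.44), and Ak3 with -0.36 (adjusted p = 0.0476); Ak3 lost its call without any 1 of 9 arrays (all but mutant 5), which left 1 gene lower. The carriers Slc25a4, Slc25a5 and Slc25a3 and the porins Vdac1, Vdac2 and Vdac3 did not pass.

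Of 17 measured genes of the TCA cycle and pyruvate entry, 5 rose (29.4%, against 8.62% of all genes) and 1 fell (5.88%, against 11.5%), with a median of -0.020. Idh3g had log2 signals of 12.07, 12.37, 12.26, 12.16 and 11.56 in mutant livers 1 to 5, against 11.14, 11.01, 11.16, 10.93 and 11.17 in control livers 1 to 5. Idh3g and Idh3a, subunits of the NAD-dependent isocitrate dehydrogenase, rose by 1.001 (adjusted p = 0.00585, SE 0.14) and 0.67 (adjusted p = 0.0193, SE 0.16), and Idh2, the NADP-dependent enzyme, by 1.04 (adjusted p = 0.0128, SE 0.21). Suclg2, a subunit of succinyl-CoA ligase, and Mdh2, malate dehydrogenase, rose by 0.54 (adjusted p = 0.00308, SE 0.06) and 0.46 (adjusted p = 0.0193, SE 0.11), while Pdha1, the pyruvate dehydrogenase subunit, fell with a difference of -0.27 (adjusted p = 0.0226). The number of genes that rose was 5 or 6 under all 10 left-out arrays, whereas Pdha1 was lost without control 3, mutant 2 or mutant 4.

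Regulators of mitochondrial biogenesis gave 1 gene lower and 1 higher of 15 (median -0.14), 6.67% each and below the 11.5% and 8.62% of all genes, so the counts do not set the list apart. Tfam, which packs and transcribes mitochondrial DNA, fell with a difference of -0.65 (adjusted p = 0.0226, SE 0.16), and Gabpb2, a partner of the transcription factor Gabpa, rose by 0.38 (adjusted p = 0.0261, SE 0.10). Tfam was lost without control 4 or mutant 4, and Gabpb2 without control 2, mutant 2 or mutant 3. Both were also lost when probe sets were averaged, and Tfam with the replicate number as a block. The coactivator gene Ppargc1a and the transcription factor gene Nrf1, known for driving respiratory chain genes, had differences of 0.59 (95% interval -0.26 to 1.44, adjusted p = 0.312) and -0.27 (95% interval -0.66 to 0.12, adjusted p = 0.314) and did not pass. Nrf1 was dim, with means of 3.94 in mutant and 4.21 in control livers, near the 25th percentile of all values (3.60), so its level is poorly measured here.

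**Figure D4:**
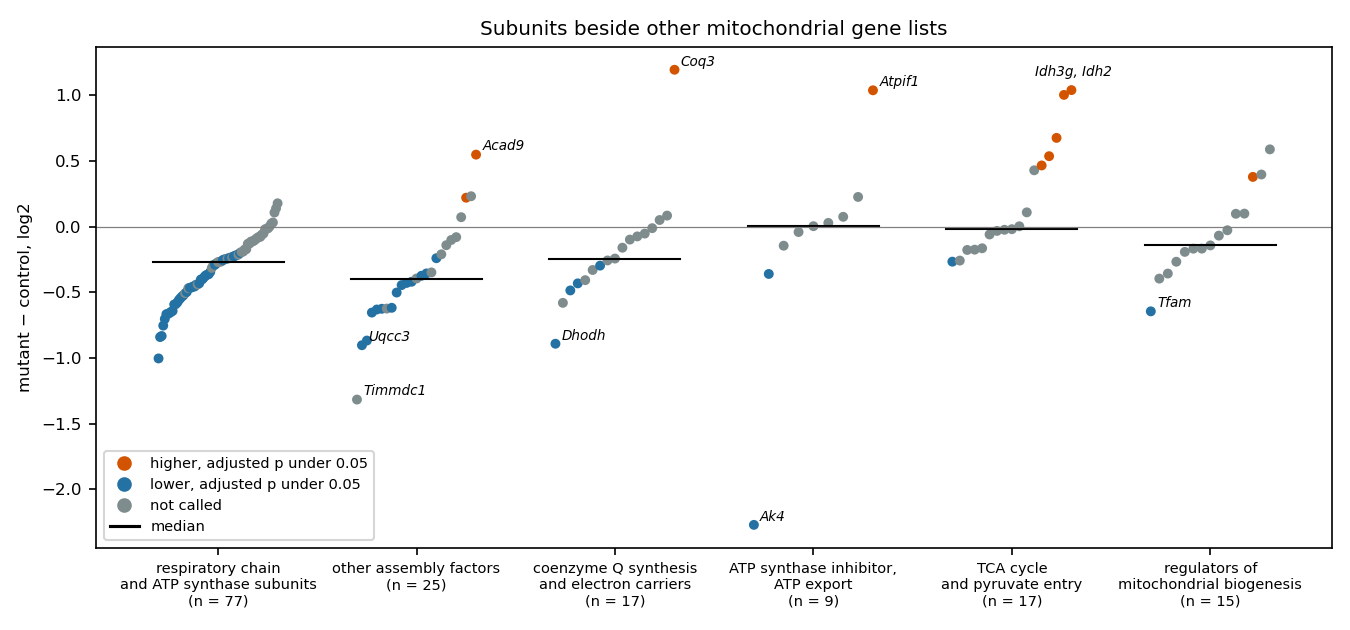
Differences (mutant minus control, log2) of the 77 subunits and of 5 other mitochondrial gene lists are drawn as points with a bar at each list's median. The median is -0.27 over the subunits, -0.40 over the other assembly factors, -0.020 over the TCA cycle genes and -0.14 over the regulators, with Coq3, Atpif1, Idh2 and Idh3g at or above 1.001.

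Promoters of respiratory chain genes are known for sites of NRF1 and of the ETS factor GABPA, and RefSeq promoters (GRCm38.p6, 250 bases upstream of the gene start) were read for 82 of the 98 genes. The NRF1 motif, 10 letters long, on either strand was present in 11 of 82 (13.4%), against 8.1% of the 10011 tested genes with a promoter. The GABPA motif CCGGAAG was present in 18 of 82 (22%), against 13.1%, and in 7 of 17 (41.2%) of the assembly factors. Among subunits the GABPA share was 17.2%. By call, the GABPA motif was found in 13 of 44 genes that fell (29.5%) and in 5 of 37 that did not pass (13.5%). The NRF1 motif was found in 5 of 44 genes that fell (11.4%) and in 6 of 37 that did not pass (16.2%). It was present in 1 of 17 assembly factors (5.88%) and in 15.6% of subunits. Whether the share of either motif differs by call or by class was not tested. The ERR motif TCAAGGTCA was found in 1 of 82 (1.22%, against 0.26%), the YY1 motif AAGATGGCG in 0 (against 1.08%) and the NF-Y motif CCAAT in 32 (39%, against 36.2%). These are letter matches in these windows and no statement about binding. To show what such promoters hold, the last 200 bases before the start of 5 genes that fell and carry a motif, 1 for each complex, are printed 5' to 3' with NRF1 and GABPA motifs, on either strand, in capitals.
Ndufa8 (chr2:36049339-36049538, minus strand): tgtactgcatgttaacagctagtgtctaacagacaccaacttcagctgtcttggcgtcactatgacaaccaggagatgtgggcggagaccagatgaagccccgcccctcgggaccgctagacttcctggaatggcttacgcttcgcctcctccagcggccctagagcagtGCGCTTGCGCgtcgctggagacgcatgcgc
Sdhd (chr9:50603850-50604049, minus strand): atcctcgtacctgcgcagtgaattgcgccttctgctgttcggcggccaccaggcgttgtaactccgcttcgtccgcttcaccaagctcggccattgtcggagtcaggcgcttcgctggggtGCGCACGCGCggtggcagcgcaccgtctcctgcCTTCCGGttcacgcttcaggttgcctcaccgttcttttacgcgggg
Uqcr11 (chr10:80406822-80407021, minus strand): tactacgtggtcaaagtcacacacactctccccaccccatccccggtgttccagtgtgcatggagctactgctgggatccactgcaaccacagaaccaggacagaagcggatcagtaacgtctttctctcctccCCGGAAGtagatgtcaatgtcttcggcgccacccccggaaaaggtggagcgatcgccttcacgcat
Cox6a1 (chr5:115348959-115349158, minus strand): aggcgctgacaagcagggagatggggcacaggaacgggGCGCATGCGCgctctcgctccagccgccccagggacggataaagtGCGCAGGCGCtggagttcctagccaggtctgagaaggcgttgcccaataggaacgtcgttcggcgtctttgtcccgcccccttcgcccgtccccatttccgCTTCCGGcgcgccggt
Atp5g2 (chr15:102671048-102671247, minus strand): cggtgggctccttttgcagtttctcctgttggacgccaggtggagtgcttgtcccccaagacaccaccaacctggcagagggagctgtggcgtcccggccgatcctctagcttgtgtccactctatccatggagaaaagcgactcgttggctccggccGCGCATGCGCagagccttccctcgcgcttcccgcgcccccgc
Cox6a1 holds 2 NRF1 motifs and 1 GABPA motif, Sdhd 1 of each, Ndufa8 and Atp5g2 1 NRF1 motif, and Uqcr11 1 GABPA motif. Of these genes Sdhd, Uqcr11 and Atp5g2 passed in all 10 fits that left out 1 array, as did Cox6a1, whereas Ndufa8 passed only without mutant liver 5.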

How the data were processed

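Liver RNA of 5 mutant and 5 control mice was read on 1 array each. The authors deposited 1 table of log2 values for 25995 probe sets; the log base was read from the values (0.27 to 16.7) (background correction, summary method, normalization and build: not given in the sources used here). Array medians lay between 6.41 and 6.68, arrays correlated at 0.970 to 0.993, and the precision is set by the number of arrays. After 37 control probe sets were left out, 21613 probe sets with 1 symbol in the platform annotation gave 12366 genes, each taken from its brightest probe set (mean of the 10 arrays); 638 probe sets with several symbols and 3707 with none were not used. Ndufa11, Ndufs6 and Cox14 were on probe sets with several symbols only and are not counted.

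Differences are mutant minus control, tested two-sided with lmFit and eBayes of limma 3.58.1 (R 4.3.3), adjusted over all genes by Benjamini-Hochberg, with calls at an adjusted p under 0.05. All adjusted p in the text come from it. P-values reflect how far these livers vary, which may be in part technical. Both groups carry the same replicate numbers; the deviations of same-numbered livers correlated at -0.0028, 0.0783, -0.183, 0.0873 and 0.0876, so the model had no block. Alternatives were other scalings, a filter on dim genes, other probe set rules, eBayes options, array weights, a replicate block and leaving out each array.

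Groups and replicate numbers came from the sample titles. Members and gene lists were chosen with earlier results of these data known. Named were Dicer1, in each complex and class the 4 members with the smallest p, those at either end of the differences and those that moved against the rest, tissue forms, and up to 4 members of each other list; further members were named after their values were seen. Promoter sequences come from RefSeq (GRCm38.p6), where 82 of 98 members matched; the first listed entry was used. The test was tested on simulated data.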

Additional observations from a re-analysis of the deposited data

Results flagged for a closer look

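Within groups of 5 livers, 14 of 196 groups of member values held an array far from the other 4, where chance flags about 1 in 20 groups. In mutant liver 5, Atp5e had 12.41, above the 11.23 to 11.52 of the other mutant livers, and Uqcrq had 13.08, above 12.48 to 12.65. Ndufaf4 was low in mutant liver 2, at 8.848 beside 9.545 to 9.818 in the others, and Atp5g3 was high in mutant liver 1, at 14.69 beside 14.42 to 14.5.

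Among the control livers, control 2 stood above the others for Atp5e (12.56, beside 12.38 to 12.42) and Atp5g3 (14.86, beside 14.7 to 14.73). Control 3 stood above the others for Atp5md (13.07, beside 12.75 to 12.84), Ndufa3 (13.37, beside 13.07 to 13.15) and Ndufc2 (13.46, beside 13.19 to 13.26). Signals below the 25th percentile of all values or close to it gave the rest: Cox6b2 in mutant liver 3 (3.754) and Ndufb4 in mutant liver 1 (2.4), and Cox6a2 in control 3 (2.277), Cox7a1 in control 4 (3.461) and Ndufb4 in control 1 (2.451).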

How the results depend on the processing

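The median differences of the classes and complexes stayed negative under all 19 alternatives. The number of genes lower in mutant livers was 45 to 49 under other scalings, 51 without dim genes, 52 and 56 under other probe set rules, 56 with the trend and robust options and 62 with array weights, and 31 to 67 with 1 array left out. In the left-out fits the number lower over all genes ran from 764 to 2160. With 1 array left out the number of genes higher was 1 or 2, the second being Atp5b without mutant liver 5. With the replicate number as a block, 34 genes were lower (22 subunits and 11 assembly factors) and 1 higher; same-numbered livers did not deviate together, and 1 of 5 control livers correlated best with the mutant liver of its own number. The cause of these shifts was not tested. Dim genes such as Ndufb4, Cox7a1 and Cox6a2 have no readable direction, and with 5 arrays a group small differences of single subunits can be missed.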
